A study of Drosophila melanogaster with 288 samples.

Results

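Neuropeptides and peptide hormones of Drosophila melanogaster were followed through embryogenesis as a list of 39 genes, each of which encodes the precursor of 1 or more secreted signalling peptides. The genes were chosen by name, from what their products are known to do. The rule that lists them uses no measured value, but earlier results of these data were known when they were chosen. Of the 39 genes, 37 had counts in the table of 17698 genes, and 27 of these passed the filter on low values (a mean over 1 cpm, that is, counts scaled to a common library total) among the 9606 genes tested. Nplp2, a neuropeptide-like precursor, and Gpa2, a subunit of a glycoprotein hormone, were not analysed here, since neither identifier matched a gene of the table. The 10 genes that were measured but stayed below the filter were Pburs, ETH, Lk, NPF, Nplp3, Ilp2, Ilp3, Ilp5, Ilp7 and Ptth.

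A neuropeptide is made as a long precursor that enters the secretory pathway, is cut at pairs of basic residues by proprotein convertases, is often amidated at its end, and is stored in dense-core vesicles until it is released. Most of the released peptides act on G protein-coupled receptors, whereas the insulin-like peptides act on a receptor tyrosine kinase. In the fly, these genes are typically transcribed in small and fixed sets of neurons and endocrine cells, such as the corpora cardiaca, the insulin-producing cells of the brain and the enteroendocrine cells of the gut, most of which differentiate in the later part of embryogenesis.

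The data were single whole embryos of the strain W1118, kept at room temperature with 12 h of light and dark, untreated and with no sex or genotype contrast. RNA of each embryo was measured by BRB-seq, which tags the polyA RNA of each sample with a barcode, pools the samples and reads only the 3′ ends of transcripts, so that counts need no correction for transcript length. The stages compared were E1 (2 to 3 h after egg laying, 11 embryos), E2 (5 to 6 h, 24), E3 (8 to 9 h, 27), E4 (11 to 12 h, 14), E5 (14 to 15 h, 21), E6 (17 to 18 h, 18), E7 (20 to 21 h, 24) and E8 (23 to 24 h, 14). These 153 embryos were what remained of 288 samples after a filter on depth, which 250 passed, and after 97 samples that formed a small cluster apart from the developmental trajectory were left out. The study also left out such a cluster, and reports that its samples appear to be unfertilized eggs. The limits of the cluster were drawn anew here, so the samples left out need not be the same. Whether embryos of a stage shared a cage or parents is not given by the labels, so the p-values measure the spread between single embryos.

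The total on protein-coding genes ranged from 377740 to 24787342 counts per embryo with a median of 6072822, and the stage medians ranged from 1850355 counts at E8 to 9612291.5 at E2. The embryos came from 4 libraries, named E1_1, E1_2, E2 and E3 (library names, not stages), into which samples had been grouped by RNA concentration. No E8 embryo came from E1_1 or E1_2, so stage and library overlap only in part, and library was a term in the fit. For each embryo, a profile over the genes tested was compared with the mean profile of each stage. The members and the lists of receptors and of peptide processing and release genes given below were left out of it. The regulators and cell type markers given below stayed in. By Spearman correlation, 129 embryos were most alike to their labelled stage and 24 to another stage. The latter were 7 embryos of the first 3 stages, none of E4, 6 of E5, 1 of E6, 6 of E7 and 4 of E8. Of these, 4 embryos labelled E7 and 2 labelled E8 were most alike to E1, while 1 labelled E1 was most alike to E6. They are kept below, and results that depend on them are also given without them. In whole embryos, more cells that express a gene and more RNA per cell cannot be told apart.

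Most neuropeptide genes were low in the first 3 stages and high in the last 3. In the comparison of the mean of E6, E7 and E8 with the mean of E1, E2 and E3, 25 of the 27 tested members were higher, 1 was lower and 1 did not pass the test. A gene was called when the adjusted p (edgeR quasi-likelihood test, Benjamini-Hochberg over 9606 genes) was under 0.05 and the fold at least 2. Over all genes tested, 32% were called higher, 27.1% lower and 59% in either direction in this comparison. The median log2 fold change was 3.74 over the members and -0.12 over all genes tested. The gene that was lower was Ilp4, an insulin-like peptide (log2 fold change -2.86, SE 0.28, adjusted p = 2.62e-18), and the gene that did not pass was ITP, which encodes ion transport peptide (log2 fold change 0.45, SE 0.30, adjusted p = 0.156). Scaling by the size factors of DESeq2 in place of TMM moved the median of all genes to 0.39 and the share called higher or lower to 38.4% and 15.0%, and left 25 members higher and 1 lower. Within the library E2 alone 25 members were higher and 1 was lower, against 31.9% and 23.3% of all genes. Within the library E3 alone 6 were higher and 1 was lower, against 15.0% and 12.6%.

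**Figure D1:**
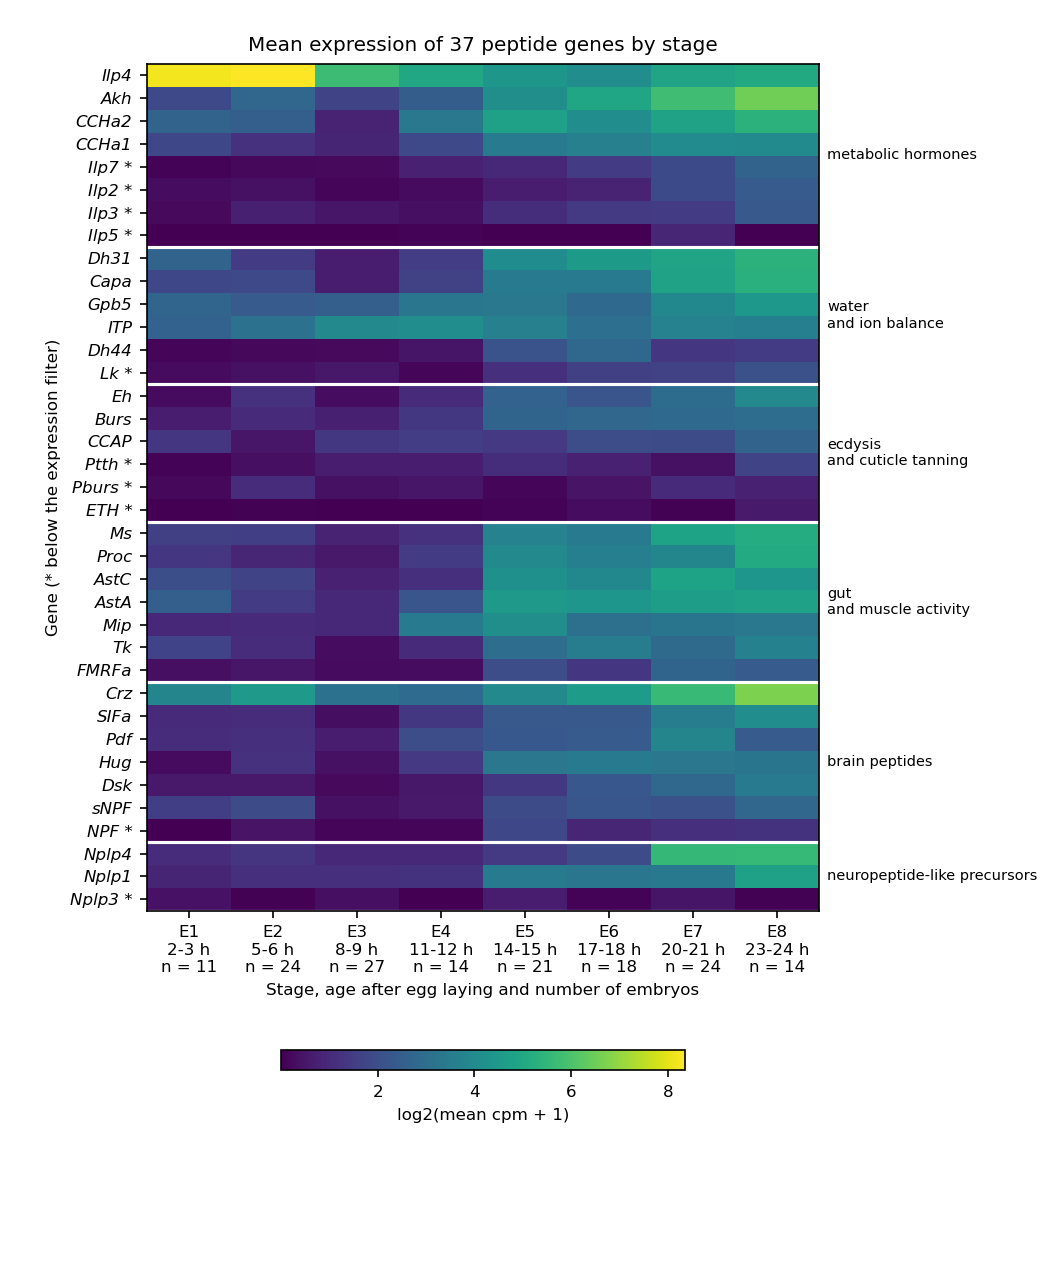
Level of the 37 measured neuropeptide and peptide hormone genes (one line each, grouped by role) at the 8 stages from E1 to E8, as log2 of the mean cpm plus 1 over the embryos of a stage. A star marks the 10 genes below the filter on low values. Most genes are dark at E1 to E3 and brighten from E5 on, whereas Ilp4 is brightest at E1 and E2.

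The levels were modest. Summed over all measured members except Ilp4, the median embryo had between 46.7 and 56.0 cpm in the first 3 stages, then 91.5 cpm at E4, 232 and 243 cpm at E5 and E6, and 499.7 and 557 cpm at E7 and E8. Single embryos ranged from 20.7 to 208 cpm at E1 and from 11.9 to 1783 cpm at E8, so the ranges of these 2 stages overlapped. At E7, the 18 embryos most alike to E7 had 205 to 957 cpm, while the 6 most alike to an earlier stage had 4.15 to 567 cpm with a median of 16.8 cpm. At E1, the 8 embryos most alike to E1 had 20.7 to 49.2 cpm and the 3 most alike to a later stage had 91.6 to 208 cpm. The difference did not go the same way at every stage: the E3 embryo most alike to a later stage had 35.7 cpm against a median of 47.2 cpm in the E3 embryos most alike to E3, and the E6 embryo most alike to an earlier stage had 325 cpm against 239 cpm.

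The change was spread unevenly over several steps between neighbouring stages. From E1 to E2, 1 member was called higher (background 1.27% of all genes tested) and 1 lower (5.76%, and 7.03% in either direction). From E2 to E3, 14 members were lower and 1 was higher, against 17.2% and 11.3% of all genes and 28.5% in either direction. Not all of the members called lower fell in the median embryo. The medians at E2 and E3 were 0.833 and 0.848 cpm for AstA and 0.24 and 0.223 cpm for Hug. They were 19.2 and 6.39 cpm for Crz and 353 and 45.7 cpm for Ilp4. From E3 to E4, 9 members were higher and 0 lower, against 15.2% and 6.85%, and 22.1% in either direction. From E4 to E5, 19 members were higher and 0 lower, against 20.5% and 7.9% (28.4% in either direction), and this was the step with the most members called. The median log2 fold change of the members was -0.17, -1.45, 1.00 and 2.47 at these 4 steps. With the size factors of DESeq2, the shares of all genes from E2 to E3 turned to 11.6% lower and 16.6% higher and the median of all genes went from -0.21 to 0.11, while the members stayed at 14 lower and 1 higher. From E3 to E4 the same scaling gave 17.6% higher and 4.51% lower over all genes and 12 members higher.

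In the second part of embryogenesis there were fewer calls. From E5 to E6, 0 members were called by edgeR in either direction, against 1.7% and 2.81% of all genes and 4.51% in either direction. At this step 2 members had an unadjusted p under 0.05, and DESeq2 called 0. From E6 to E7, 5 members were higher and 1 was lower, against 12.4% and 5.22%, and 17.6% in either direction. From E7 to E8, 0 members were called by edgeR, against 1.29% higher, 1.57% lower and 2.86% in either direction, with 4 members at an unadjusted p under 0.05 and 0 called by DESeq2. With the size factors of DESeq2 the shares of all genes at this last step were 1.64% higher and 1.33% lower. The median log2 fold change of the members was 0.14, 0.95 and 0.15 at these 3 steps. The steps share stages, and the counts of neighbouring steps are therefore not independent.

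**Figure D2:**
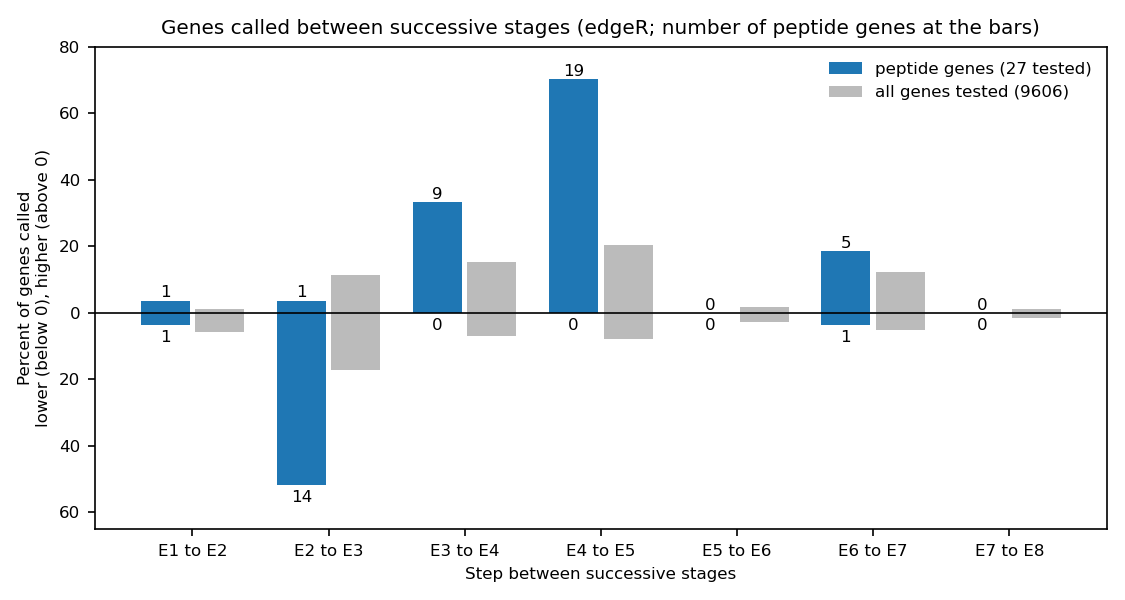
Percent of genes called higher (up) or lower (down) at each of the 7 steps between neighbouring stages, for the 27 tested neuropeptide and peptide hormone genes and for all 9606 genes tested, with the number called at each bar. The members have their highest bar at E4 to E5 (19 genes higher) and their lowest at E2 to E3 (14 genes lower), with no calls at E5 to E6 and at E7 to E8.

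The counts at the first steps depended on depth and on single embryos. After each embryo was thinned to 300000 counts, 8 members were lower and 1 was higher from E2 to E3, against 10.6% and 12.8% of all genes in that fit. At that depth 3 were higher from E3 to E4 (AstA, Mip and CCHa2) and 17 from E4 to E5, against 12.8% and 19.5% higher of all genes. With only the 129 embryos most alike to their labelled stage, 10 members were lower and 1 was higher from E2 to E3, against 15.6% and 15.0% of all genes. In the same embryos 16 members were higher from E4 to E5, 6 from E5 to E6 and 8 from E6 to E7, against 15.8%, 11.7% and 7.97% higher of all genes, so that calls from E5 to E6 also became more frequent among genes in general. No member had stage ranges that were free of overlap at any of the 7 steps, neither over all embryos (0 of 27) nor over the 129 (0 of 27). Overlap was not counted over all genes tested, so this is not known to be particular to the members.

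The 12 tested members with the highest stage means were Ilp4, Crz, Akh, Nplp4, Dh31, CCHa2, Capa, Ms, Proc, AstC, Nplp1 and AstA, and their values over embryos are given in full.

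**Figure D3:**
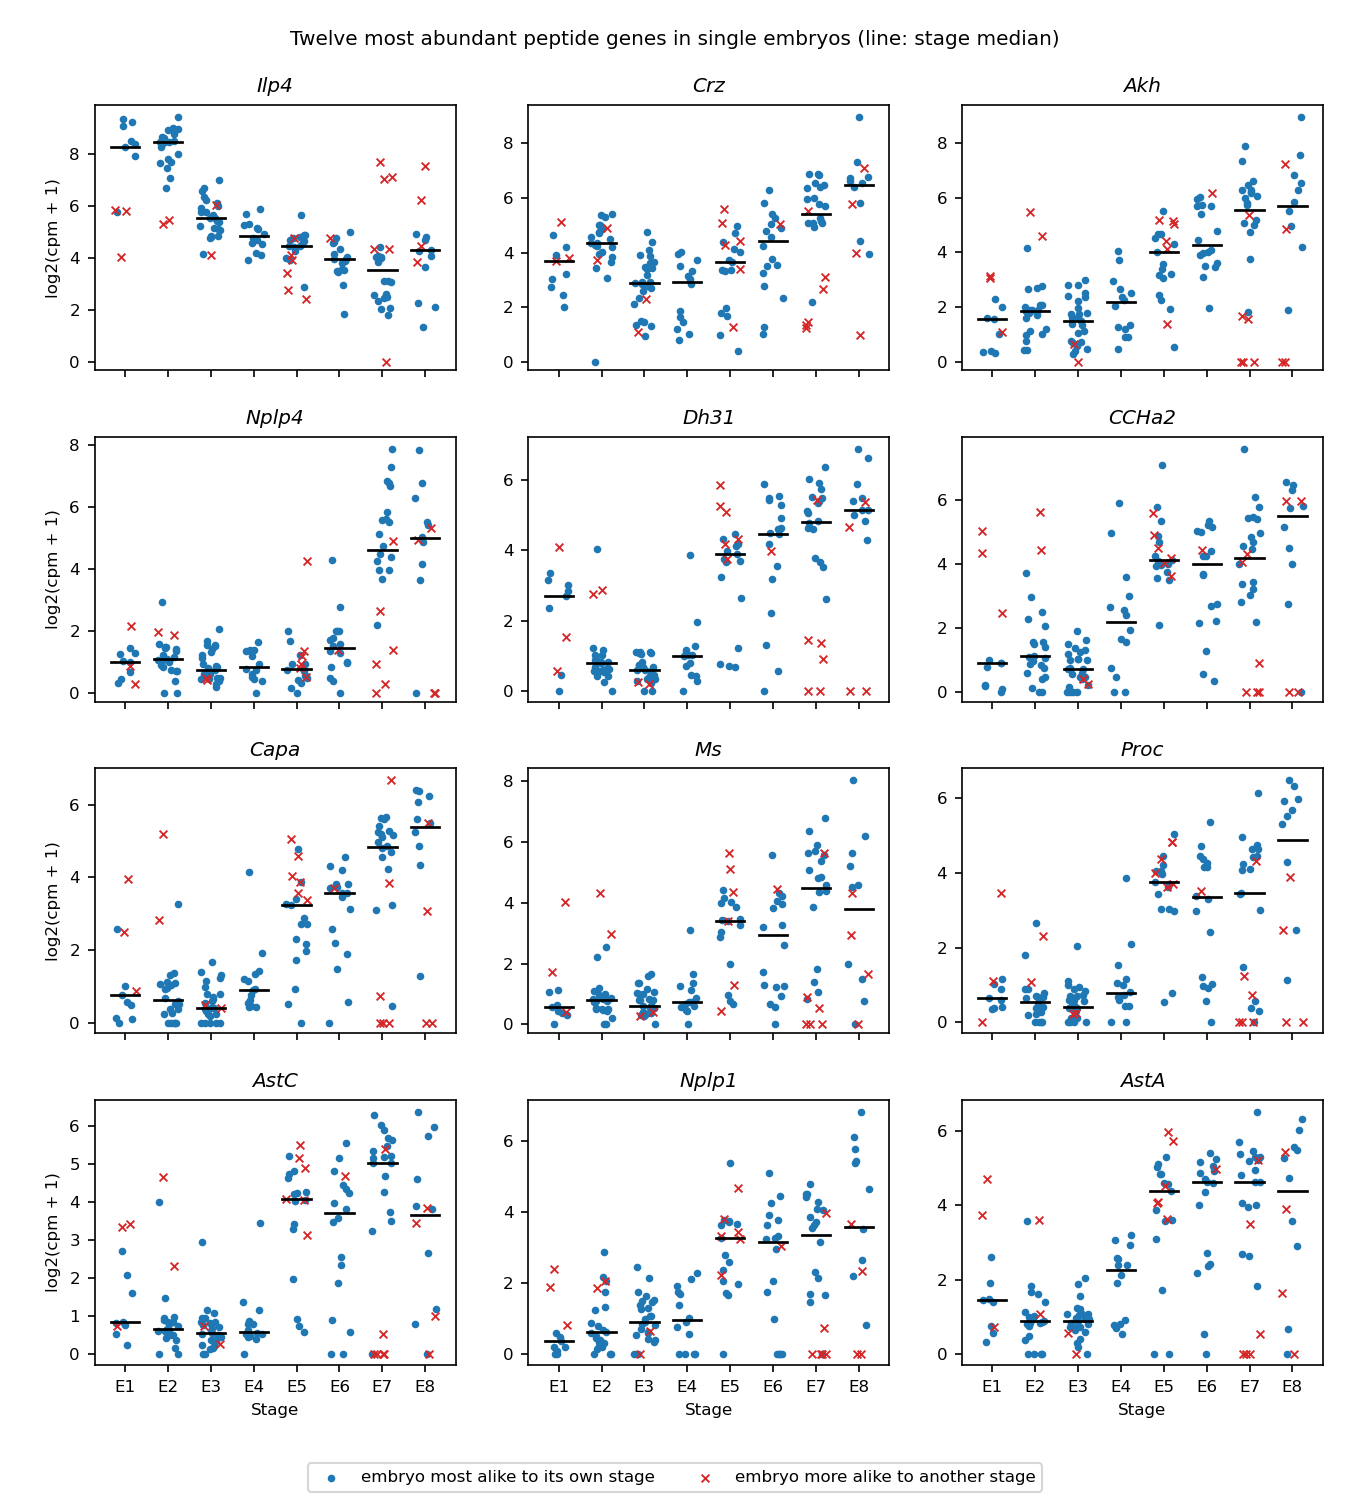
Level of the 12 most abundant members in every embryo, as log2 of cpm plus 1, by stage from E1 to E8. Blue dots are embryos most alike to their labelled stage, red crosses are the 24 embryos most alike to another stage, and short lines mark the stage medians. The crosses at E7 and E8 include the lowest values of several genes, and in the panel of Ilp4 the highest values of E7.

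Among the metabolic hormones, 4 of 8 genes passed the filter, of which Akh, CCHa1 and CCHa2 were higher late and Ilp4 was lower. For this and the following roles, the shares of all genes tested were 32% higher late and 27.1% lower. Akh (FBgn0004552, 3L from 4141467 to 4142070 in the BDGP6.54 annotation) encodes adipokinetic hormone, which is made in the corpora cardiaca and mobilises stored fat and sugar. From E1 through E8, the stage medians of Akh were 1.95, 2.66, 1.79, 3.52, 15.1, 18.4, 46.1 and 50.3 cpm. Akh ranged over the embryos of each stage, in the same order, over 0.247 to 7.83, 0.356 to 43.9, 0 to 6.93, 0.381 to 15.7, 0.447 to 44.3, 2.9 to 71.3, 0 to 235 and 0 to 488 cpm. Akh was low in nearly all embryos up to E4 and spread widely at the end, and its E8 maximum of 488 cpm was 1 embryo. Akh was called lower from E2 to E3 (log2 fold change -1.47, SE 0.42, adjusted p = 0.00312), but not without the embryos alike to another stage (log2 fold change -0.88, adjusted p = 0.0325), where the mean was 3.15 cpm at E2 and 2.43 cpm at E3 against 5.7 and 2.27 cpm over all embryos. It was higher from E4 to E5 (log2 fold change 2.48, SE 0.55, adjusted p = 0.000123) and higher from E6 to E7 (log2 fold change 1.28, SE 0.47, adjusted p = 0.0369). Of 24 embryos at E7, 8 were above every E6 embryo and 6 were below every E6 embryo. Among the embryos most alike to their labelled stage, 9 of 18 were above and 1 was below. The call from E6 to E7 did not pass the threshold with the size factors of DESeq2 in edgeR (log2 fold change 1.17, adjusted p = 0.0759) or at equal depth (log2 fold change 1.23, adjusted p = 0.0637).

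Ilp4 (FBgn0044049, 3L from 9803399 to 9804263) encodes an insulin-like peptide that is known from the embryonic mesoderm and the anterior midgut. The median embryo of the 8 stages, E1 first, had Ilp4 at 309.6, 353, 45.7, 28.4, 21.04, 14.7, 10.6 and 18.8 cpm. Ilp4 ranged over the embryos of each stage, in the same order, over 15.7 to 649, 38.4 to 684, 16.5 to 128, 14.1 to 58.3, 4.46 to 49.4, 2.68 to 31.4, 0 to 209 and 1.56 to 188 cpm. Ilp4 was by far the most abundant member at E1 and E2, fell at E3, and had low medians from then on. It fell from E2 to E3 (log2 fold change -2.87, SE 0.39, adjusted p = 1.14e-09), when 10 of 27 embryos at E3 lay below every E2 embryo, and 24 of 25 did so among the embryos most alike to their labelled stage. The step from E3 to E4 had a log2 fold change of -1.03 and did not pass (adjusted p = 0.0787). From E6 to E7, Ilp4 was called higher (log2 fold change 1.34, SE 0.44, adjusted p = 0.0185), although the median was lower at E7. This call rested on embryos that resembled another stage. Without them the highest E7 value went from 209 to 20.6 cpm and the call was lost (log2 fold change -0.47, adjusted p = 0.177), and it was also lost without the library E3 (log2 fold change 0.88, adjusted p = 0.125), a check chosen after the data were seen.

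CCHa2 (FBgn0038147, 3R from 13389059 to 13395197) encodes a peptide of gut and fat body that acts on the insulin-producing cells. The stage medians of CCHa2 were, in order from E1 to E8, 0.872, 1.16, 0.637, 3.54, 16.5, 14.8, 17.2 and 43.6 cpm. CCHa2 ranged over the embryos of each stage, in the same order, over 0 to 31.2, 0 to 47.97, 0 to 2.79, 0 to 58.7, 3.27 to 133, 0.26 to 39.4, 0 to 190.5 and 0 to 92.3 cpm. CCHa2 was near its floor at E3 and rose in the following steps, with wide spread in all stages. CCHa2 fell from E2 to E3 (log2 fold change -2.27, SE 0.52, adjusted p = 0.000204), by less without the embryos alike to another stage (log2 fold change -1.64, adjusted p = 0.00149), then rose from E3 to E4 (log2 fold change 2.77, SE 0.57, adjusted p = 5.38e-05) and from E4 to E5 (log2 fold change 2.35, SE 0.63, adjusted p = 0.00161). CCHa1, a related peptide of the gut and brain, went from a median of 0.39 cpm at E3 to 6.75 cpm at E5 and 13.4 cpm at E7, and was called from E4 to E5 only (log2 fold change 2.61, SE 0.75, adjusted p = 0.00356). Without the embryos alike to another stage, the CCHa1 call moved to the neighbouring steps, E3 to E4 (log2 fold change 2.10, adjusted p = 0.000468) and E5 to E6 (log2 fold change 1.62, adjusted p = 0.0198).

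The other insulin-like peptide genes stayed below the filter. Ilp2, Ilp3 and Ilp5 are made by the insulin-producing cells of the larval brain, and Ilp7 by neurons of the ventral nerve cord. The highest stage mean was 4.28 cpm for Ilp2, 4.04 cpm for Ilp3 and 5.37 cpm for Ilp7, all at E8, and 0.856 cpm for Ilp5 at E7. In a fit with no filter, Ilp7 (log2 fold change 4.70), Ilp2 (3.64) and Ilp3 (2.91) were called higher late. Of all 13291 genes in that fit, 30.1% were called higher and 21.5% lower. Ilp5 was called too (1.72), but on 130 counts in 3 of 24 embryos at E7, since its mean was 0.014, 0.0285 and 0.0139 cpm at E1, E2 and E3 and 0.0112 and 0.00757 cpm at E6 and E8.

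Among the genes for water and ion balance, 5 of 7 passed, and Dh31, Dh44, Capa and Gpb5 were higher late (32% of all genes tested) while ITP was not called. Dh31 (FBgn0032048, 2L from 8491868 to 8506845) encodes a diuretic hormone of the calcitonin type, made in neurons and enteroendocrine cells. From E1 through E8, the stage medians of Dh31 were 5.47, 0.759, 0.512, 1.02, 13.7, 21.2, 26.8 and 34.5 cpm. Dh31 ranged over the embryos of each stage, in the same order, over 0 to 16.1, 0 to 15.4, 0 to 1.18, 0 to 13.6, 0.598 to 56.7, 0 to 57.8, 0 to 81.4 and 0 to 117 cpm. Dh31 had a small early level at E1, its lowest values at E3, and its highest at E8. It fell from E1 to E2 (log2 fold change -2.21, SE 0.54, adjusted p = 0.00222) and from E2 to E3 (log2 fold change -1.80, SE 0.46, adjusted p = 0.000835), then rose from E3 to E4 (log2 fold change 1.39, SE 0.51, adjusted p = 0.0339) and most from E4 to E5 (log2 fold change 3.60, SE 0.60, adjusted p = 4.01e-07), when 11 of 21 embryos at E5 were above every E4 embryo. At equal depth the fall from E1 to E2 did not pass (log2 fold change -1.73, adjusted p = 0.11), and the rise from E3 to E4 was not called either. Dh31 shares 1415 bases with Bace on the same strand, and reads of the shared stretch could have been assigned to either or to none.

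Capa (FBgn0039722, 3R from 29912991 to 29914346) encodes the capability peptides, which act on the Malpighian tubules. The median embryo of the 8 stages, E1 first, had Capa at 0.679, 0.548, 0.331, 0.875, 8.47, 10.9, 27.4 and 40.5 cpm. Capa ranged over the embryos of each stage, in the same order, over 0 to 14.5, 0 to 35.6, 0 to 2.2, 0.343 to 16.8, 0 to 32.6, 0 to 22.5, 0 to 101 and 0 to 84.2 cpm. Capa was at or near its floor up to E4 in the median embryo and reached its highest median at E8. Capa fell from E2 to E3 (log2 fold change -2.19, SE 0.53, adjusted p = 0.000417), by less without the embryos alike to another stage (log2 fold change -1.15, adjusted p = 0.0284, means of 0.945 and 0.578 cpm), and rose from E4 to E5 (log2 fold change 3.09, SE 0.69, adjusted p = 0.000123) and from E6 to E7 (log2 fold change 1.72, SE 0.57, adjusted p = 0.0203). The last of these did not pass at equal depth (log2 fold change 1.32, adjusted p = 0.0757).

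Dh44, a diuretic hormone related to corticotropin-releasing factor, had a median of at most 0.0847 cpm up to E4 and 3.39 cpm at E5, where it rose (log2 fold change 3.48, SE 0.83, adjusted p = 0.000364). It was called lower from E6 to E7 (log2 fold change -1.76, SE 0.66, adjusted p = 0.0421). The highest E6 value, 71.1 cpm, was the only E6 embryo of the library E3, and without that library the log2 fold change was -0.19 (adjusted p = 0.883). ITP had medians of 1.98 cpm at E1, 13.6 cpm at E3, 13.7 cpm at E4 and 4.65 cpm at E8, and no step of ITP was called. ITP overlaps CG4622 on the opposite strand by 18880 bases, and the strand setting of the counting is not given in the sources used here, so its counts are uncertain. Leucokinin, encoded by Lk, stayed below the filter, with a highest stage mean of 3.2 cpm at E8.

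Gpb5 (FBgn0063368, 2L from 23311700 to 23312464) encodes a subunit of a glycoprotein hormone whose partner subunit is Gpa2. The stage medians of Gpb5 were, in order from E1 to E8, 3.06, 3.25, 4.35, 8.44, 8.17, 5.62, 10.98 and 17.7 cpm. Gpb5 ranged over the embryos of each stage, in the same order, over 0.291 to 13.7, 0 to 14.99, 0 to 21.4, 0 to 28.7, 0.327 to 29.6, 0 to 15.5, 0 to 55.2 and 0 to 51.9 cpm. Gpb5 had low medians in the early stages and its highest medians at E7 and E8. No step of Gpb5 was called, and Gpb5 was higher late (log2 fold change 1.44, SE 0.31, adjusted p = 1.51e-05). Within the library E3 alone, the sign of Gpb5 turned (log2 fold change -1.09, adjusted p = 0.73), as did that of ITP (log2 fold change -2.59, adjusted p = 0.331).

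Among the genes of ecdysis and cuticle tanning, 3 of 6 passed, and all 3 were higher late, against 32% of all genes tested. Eh encodes eclosion hormone, which triggers the ecdysis sequence at the end of a moult. Its median was 0.0804 cpm at E1, 0.349 cpm at E4, 3.31 cpm at E5 and 5.4 cpm at E8. Eh was higher late (log2 fold change 4.42, SE 0.50, adjusted p = 8.96e-15) and was called at 4 steps, higher from E1 to E2 (2.75), lower from E2 to E3 (-2.97), higher from E3 to E4 (2.69) and higher from E4 to E5 (2.13). Without the embryos alike to another stage the first call was lost (log2 fold change 0.72, adjusted p = 0.701) and the fall from E2 to E3 was smaller (log2 fold change -1.56, adjusted p = 0.0237). Without the library E3 the rise from E3 to E4 was lost (log2 fold change 1.38, adjusted p = 0.136), and it was not called at equal depth either. CCAP, crustacean cardioactive peptide, was higher late (log2 fold change 2.09, SE 0.47, adjusted p = 3e-05) and was the only member that rose from E2 to E3 (log2 fold change 2.02, SE 0.70, adjusted p = 0.0154), at medians of 0.196 and 0.4 cpm.

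Bursicon, the hormone that tans and hardens the new cuticle, is a dimer of the products of Burs and Pburs. From E1 through E8, the stage medians of Burs (FBgn0038901, 3R from 21769518 to 21770279) were 0.494, 0.588, 0.489, 0.566, 4.96, 4.4, 4.03 and 2.15 cpm. Burs ranged over the embryos of each stage, in the same order, over 0 to 2.24, 0.17 to 4.26, 0 to 1.79, 0 to 7.59, 0 to 16.6, 1.89 to 18.8, 0 to 29.004 and 0 to 36.8 cpm. Burs rose from E4 to E5 (log2 fold change 2.09, SE 0.58, adjusted p = 0.00232) and was higher late (log2 fold change 3.08, SE 0.35, adjusted p = 1.12e-14). The median embryo of the 8 stages, E1 first, had Pburs (FBgn0264810, 2L from 14416729 to 14417331) at 0, 0.235, 0, 0.269, 0, 0, 0 and 0.0634 cpm. Pburs ranged over the embryos of each stage, in the same order, over 0 to 1.14, 0 to 6.11, 0 to 4.07, 0 to 1.91, 0 to 0.447, 0 to 1.9, 0 to 11.4 and 0 to 3.12 cpm. The 2 subunit genes thus differed in level, with Burs at a median of several cpm from E5 to E7 and Pburs at or near 0 in the median embryo of every stage. In the fit with no filter, Pburs had a late log2 fold change of 0.88 (adjusted p = 0.0861). ETH, the ecdysis triggering hormone of the Inka cells, had a highest stage mean of 0.526 cpm and Ptth, the hormone that drives ecdysone production, of 2.27 cpm, both at E8.

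All 7 genes of gut and muscle activity passed, and all 7 were higher late, against 32% of all genes tested. AstC (FBgn0032336, 2L from 11076165 to 11081399) encodes allatostatin C, a peptide of neurons and enteroendocrine cells. The stage medians of AstC were, in order from E1 to E8, 0.796, 0.554, 0.446, 0.497, 15.8, 12.01, 31.3 and 11.5 cpm. AstC ranged over the embryos of each stage, in the same order, over 0.163 to 9.65, 0 to 24.2, 0 to 6.74, 0 to 9.78, 0.485 to 44.4, 0 to 46.3, 0 to 77.6 and 0 to 81.9 cpm. AstC moved sharply between E4 and E5, when 14 of 21 embryos at E5 were above every E4 embryo. It was called lower from E2 to E3 (log2 fold change -1.96, SE 0.54, adjusted p = 0.00195), at medians of 0.554 and 0.446 cpm. AstC rose from E4 to E5 (log2 fold change 4.23, SE 0.74, adjusted p = 1.03e-06), the largest fold change of a member at that step. It also rose from E6 to E7 (log2 fold change 1.57, SE 0.59, adjusted p = 0.0414). The last call did not pass with the size factors of DESeq2 in edgeR (log2 fold change 1.41, adjusted p = 0.0844). The call from E2 to E3 did not pass without the embryos alike to another stage (log2 fold change -1.11, adjusted p = 0.0565).

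AstA (FBgn0015591, 3R from 24760530 to 24765071) encodes allatostatin A, which inhibits feeding and gut motility. From E1 through E8, the stage medians of AstA were 1.74, 0.833, 0.848, 3.79, 20.04, 23.6, 23.5 and 19.8 cpm. AstA ranged over the embryos of each stage, in the same order, over 0.247 to 25.3, 0 to 11.3, 0 to 3.11, 0.446 to 8.26, 0 to 61.5, 0 to 41.8, 0 to 90.6 and 0 to 78.6 cpm. AstA reached its late level at E5 and stayed there in the median embryo. AstA was called lower from E2 to E3 (log2 fold change -1.38, SE 0.45, adjusted p = 0.0101), though its median did not fall. This call was lost without the embryos alike to another stage (log2 fold change -0.97, adjusted p = 0.0429). AstA rose from E3 to E4 (log2 fold change 2.05, SE 0.50, adjusted p = 0.000821) and from E4 to E5 (log2 fold change 2.66, SE 0.58, adjusted p = 8.96e-05).

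Ms (FBgn0011581, 3R from 24341551 to 24343825) encodes myosuppressin, which inhibits contraction of the gut and heart. The median embryo of the 8 stages, E1 first, had Ms at 0.489, 0.729, 0.521, 0.66, 9.64, 6.7, 21.6 and 12.8 cpm. Ms ranged over the embryos of each stage, in the same order, over 0 to 15.2, 0 to 18.8, 0 to 2.17, 0 to 7.65, 0.365 to 49.2, 0 to 46.4, 0 to 109 and 0 to 260.5 cpm. Ms was near its floor in most embryos up to E4 and scattered widely at E7 and E8. Between E2 and E3 Ms fell (log2 fold change -1.45, SE 0.55, adjusted p = 0.0289), a call lost without the embryos alike to another stage (log2 fold change -0.47, adjusted p = 0.425), and it rose from E4 to E5 (log2 fold change 3.50, SE 0.72, adjusted p = 3.73e-05).

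Proc (FBgn0045038, 2L from 7864642 to 7871432) encodes proctolin, a peptide of motor neurons that stimulates muscle. The stage medians of Proc were, in order from E1 to E8, 0.563, 0.452, 0.317, 0.715, 12.6, 9.2, 9.95 and 28.8 cpm. Proc ranged over the embryos of each stage, in the same order, over 0 to 10.1, 0 to 5.37, 0 to 3.1, 0 to 13.6, 0.447 to 32.1, 0 to 39.98, 0 to 69.98 and 0 to 88.7 cpm. Proc went up at E5, held level, and had its highest median at E8. It rose from E3 to E4 (log2 fold change 1.53, SE 0.57, adjusted p = 0.0387), a call lost at equal depth. Proc also rose from E4 to E5 (log2 fold change 3.30, SE 0.67, adjusted p = 2.57e-05), and the step from E7 to E8 did not pass (log2 fold change 1.38, SE 0.56, adjusted p = 0.162).

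Mip, which encodes the myoinhibiting peptides, was called at a single step. Its median went from 0.446 cpm at E3 to 10.8 cpm at E4 (log2 fold change 3.34, SE 0.54, adjusted p = 2.72e-07), when 7 of 14 embryos at E4 were above every E3 embryo, and was 13.5 cpm at E5 and 8.02 cpm at E8, with no other step called. Tk, which encodes the tachykinins of brain and gut, fell from E2 to E3 (log2 fold change -2.48, SE 0.66, adjusted p = 0.00145), rose from E3 to E4 (log2 fold change 1.87, SE 0.71, adjusted p = 0.0419) and from E4 to E5 (log2 fold change 3.03, SE 0.80, adjusted p = 0.00132), at medians of 0.393 cpm at E4 and 1.97 cpm at E5. At equal depth neither the fall of Tk (log2 fold change -0.19, adjusted p = 0.868) nor its rise from E3 to E4 (log2 fold change 0.36, adjusted p = 0.807) passed. FMRFa, a precursor of FMRFamide peptides, had a median under 1 cpm at every stage and rose from E4 to E5 (log2 fold change 4.13, SE 0.96, adjusted p = 0.000258), with a highest embryo of 14.96 cpm at E5.

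Among the brain peptides, 6 of 7 passed, and all 6 were higher late, against 32% of all genes tested. Crz (FBgn0013767, 3R from 14314854 to 14315716) encodes corazonin, a neurosecretory peptide of the stress response. From E1 through E8, the stage medians of Crz were 12.1, 19.2, 6.39, 6.64, 11.7, 20.3, 41.2 and 87.9 cpm. Crz ranged over the embryos of each stage, in the same order, over 3.06 to 34.2, 0 to 41.5, 0.951 to 26.1, 0.761 to 15.1, 0.327 to 47.7, 1.04 to 76.7, 1.38 to 117 and 0.991 to 493 cpm. Crz had a clear early level at E1 and E2, a trough at E3 and E4, and its highest median at E8. It fell from E2 to E3 (log2 fold change -1.71, SE 0.40, adjusted p = 0.000291) and rose from E4 to E5 (log2 fold change 1.42, SE 0.49, adjusted p = 0.018), and the step from E6 to E7 did not pass (log2 fold change 1.13, SE 0.44, adjusted p = 0.0544). With the embryos most alike to their labelled stage, the order of calls changed for Crz, with no call from E4 to E5 (log2 fold change 1.00, adjusted p = 0.0958) and a rise from E5 to E6 (log2 fold change 1.35, adjusted p = 0.0207) and from E6 to E7 (log2 fold change 1.45, adjusted p = 0.0094).

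The other brain peptide genes had lower levels. Pdf encodes the pigment-dispersing factor of the clock neurons. It rose from E3 to E4 (log2 fold change 2.29, SE 0.70, adjusted p = 0.00871), at medians of 0.326 and 1.59 cpm, a call lost at equal depth. The highest E7 value of Pdf, 183 cpm, was 1 embryo. SIFa encodes SIFamide, which is made in neurons of the pars intercerebralis. It fell from E2 to E3 (-2.84) and rose from E3 to E4 (2.53), and neither passed at equal depth (adjusted p = 0.798 and 0.065). Hug, a precursor of pyrokinins that curb feeding, was higher late with the largest fold change of a member (log2 fold change 4.86, SE 0.48, adjusted p = 5.09e-18). Hug was called lower from E2 to E3 (log2 fold change -2.28, SE 0.60, adjusted p = 0.0014), though its medians were alike at 0.24 and 0.223 cpm. It rose from E4 to E5 (log2 fold change 3.25, SE 0.74, adjusted p = 0.000188), at medians of 0.19 and 3.93 cpm.

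Dsk, the precursor of drosulfakinin, a satiety peptide, rose from E4 to E5 (log2 fold change 2.41, SE 0.80, adjusted p = 0.0131), and this call was lost at equal depth (log2 fold change 0.89, adjusted p = 0.316) and without the embryos alike to another stage (log2 fold change 1.78, adjusted p = 0.0655). The gene sNPF encodes short neuropeptide F, which promotes feeding. sNPF fell from E2 to E3 (log2 fold change -3.68, SE 0.65, adjusted p = 1.89e-06) and rose from E4 to E5 (log2 fold change 2.47, SE 0.77, adjusted p = 0.00785), at medians of 0.222, 0.196, 0.368 and 1.36 cpm from E2 to E5. The fall of sNPF is thus not seen in the medians, and the highest embryo was at 27.4 cpm at E2 and 1.17 cpm at E3. NPF, the fly counterpart of neuropeptide Y, was below the filter, with its highest median of 1.54 cpm at E5, and was higher late in the fit with no filter (log2 fold change 3.91, adjusted p = 1.34e-11).

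Of the neuropeptide-like precursors, 2 of 4 passed, and both were higher late (32% of all genes tested), at different times. Nplp4 (FBgn0040717, 2L from 2008414 to 2009072) encodes a small secreted precursor, and among the 12 most abundant members it was the only one whose single called step was from E6 to E7. The median embryo of the 8 stages, E1 first, had Nplp4 at 0.988, 1.11, 0.669, 0.783, 0.69, 1.71, 23.5 and 30.7 cpm. Nplp4 ranged over the embryos of each stage, in the same order, over 0.224 to 3.47, 0 to 6.66, 0.14 to 3.2, 0 to 2.11, 0 to 18.2, 0 to 18.5, 0 to 236 and 0 to 227 cpm. Nplp4 stayed near 1 cpm in the median embryo up to E5 and was high in most but not all embryos of E7 and E8. It rose from E6 to E7 (log2 fold change 4.64, SE 0.55, adjusted p = 3.62e-11), when 14 of 24 embryos at E7 were above every E6 embryo, and 13 of 18 were so among the embryos most alike to their labelled stage. The step from E4 to E5 did not pass for Nplp4 (log2 fold change 1.26, SE 0.57, adjusted p = 0.0765).

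Nplp1 (FBgn0035092, 2R from 25032377 to 25040377) encodes a precursor that is made in neurons of the ventral nerve cord. The stage medians of Nplp1 were, in order from E1 to E8, 0.291, 0.533, 0.892, 0.942, 8.67, 7.83, 9.24 and 11.02 cpm. Nplp1 ranged over the embryos of each stage, in the same order, over 0 to 4.29, 0 to 6.28, 0 to 4.46, 0 to 3.83, 0 to 40.8, 0 to 33.1, 0 to 26.6 and 0 to 111 cpm. Nplp1 was called at 1 step, higher from E4 to E5 (log2 fold change 2.98, SE 0.64, adjusted p = 7.56e-05). Over all embryos its median was then level up to E8, while its mean went from 9.35 cpm at E7 to 26.8 cpm at E8. Among the embryos most alike to their labelled stage, the median was 11.7 cpm at E7 and 32.1 cpm at E8. The step from E7 to E8 did not pass (log2 fold change 1.24, SE 0.55, adjusted p = 0.208). Nplp3 was below the filter, with a highest stage mean of 0.551 cpm at E5.

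**Figure D4:**
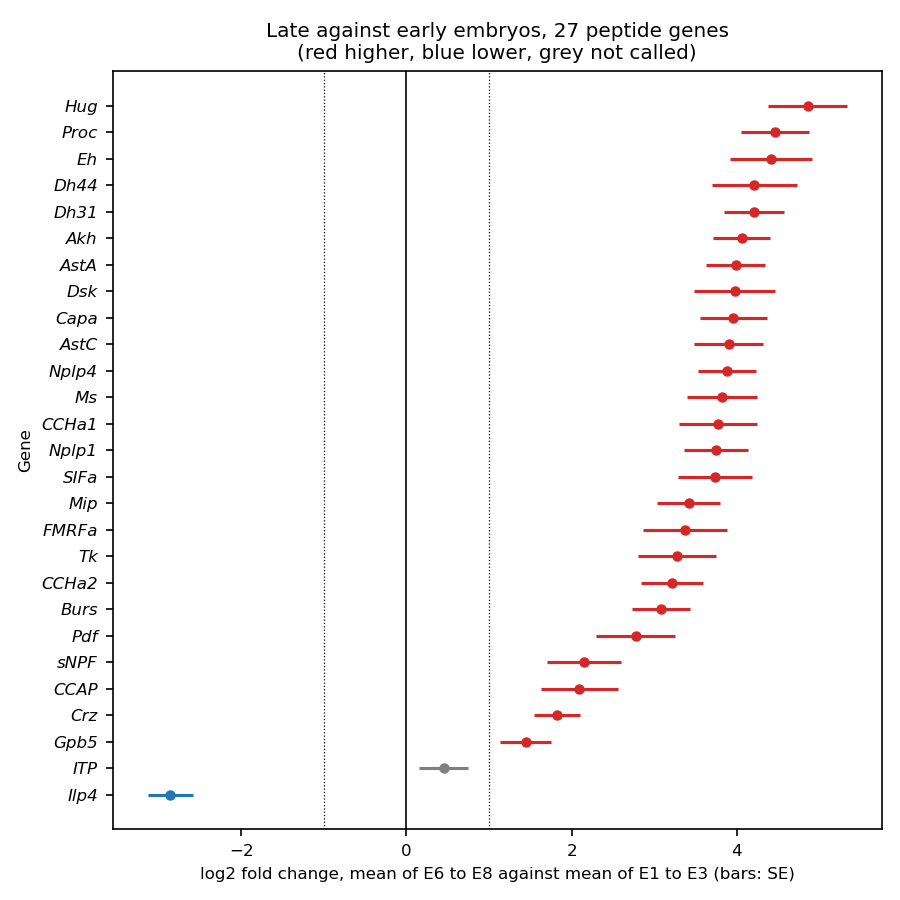
Log2 fold change of the mean of E6, E7 and E8 over the mean of E1, E2 and E3 for the 27 tested members, with bars of 1 standard error, ordered by size. Red members are called higher, blue lower and grey not called, and dotted lines mark a fold of 2. The values run from -2.86 for Ilp4 to 4.86 for Hug, with ITP at 0.45 as the only gene not called.

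The members differed in when they reached their late level. The highest stage mean was at E8 for 18 of the 27 tested members, at E7 for 4, at E6 for 2, and at E5, E4 and E2 for 1 each. The first stage with at least 50% of the highest mean was E5 for 9 members, E7 for 8, E8 for 4, E6 for 3, and E1, E3 and E4 for 1 each. With the embryos most alike to their labelled stage, this stage was E7 for 13 members and E5 for 5. Among the roles, 6 of the 7 genes of gut and muscle activity rose from E4 to E5, as did 4 of the 6 tested brain peptides, 3 of the 5 for water and ion balance, 3 of the 4 metabolic hormones, 2 of the 3 genes of ecdysis and 1 of the 2 neuropeptide-like precursors. Over all genes tested, 20.5% were higher at this step. The roles hold few genes each, and differences between them were not tested.

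Detection was compared at equal depth. The median number of the 37 measured members with a count was between 27 and 33 per embryo at every stage with all counts, whereas at 300000 counts per embryo it was 7 in each of the first 3 stages, 11.5 at E4, 20 at both E5 and E6, 22.5 at E7 and 21.5 at E8. At this depth Nplp4 had a count in 14.3% of E5, 38.9% of E6 and 83.3% of E7 embryos. Akh had a count in 18.2% of E1, 70.8% of E2, 40.7% of E3, 57.1% of E4 and 85.7% of E5 embryos, with no steady order, and Ilp4 in 100% of E1 and 83.3% of E7 embryos.

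The receptors of these peptides were higher late too. Of 38 listed receptor genes 27 passed the filter, of which 24 were higher late, 0 were lower and 3 were not called (tor, CapaR and InR). The shares of all genes tested were 32% higher and 27.1% lower. The median log2 fold change was 2.76. The largest were those of Lkr, the leucokinin receptor (4.39), Dh44-R2, a receptor of Dh44 (4.07), AstC-R2, a receptor of allatostatin C (4.03), and PK2-R2, a pyrokinin receptor (3.88). Relative to each gene's highest stage mean, the median receptor stood at 91.9% at E5 and 57.9% at E7, whereas the median member stood at 42.4% at E5, 66.6% at E7 and 100% at E8. The difference between these profiles was not tested.

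Of the 19 genes of peptide processing and release, all of which passed, 13 were higher late, 1 was lower and 5 were not called. For this list and the next, the shares of all genes tested were again 32% higher and 27.1% lower. The largest increases were in IA-2, a dense-core vesicle protein (4.88), 7B2, the helper protein of the convertase amon (4.04), Pal2, an amidating lyase (3.58), and amon itself (3.43), while Pal1, the other amidating lyase, was lower (-1.61). Of 18 genes listed as regulators of peptidergic cells, 16 passed, of which 1 was higher late, crc (1.07), and 8 were lower. The largest decreases were in tin (-3.13), gl (-2.57), cas (-2.55) and eya (-2.21), which are transcription factors with roles in many other embryonic cells. The median regulator stood at 77.4% of its highest mean at E3 and at 21.6% at E6.

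**Figure D5:**
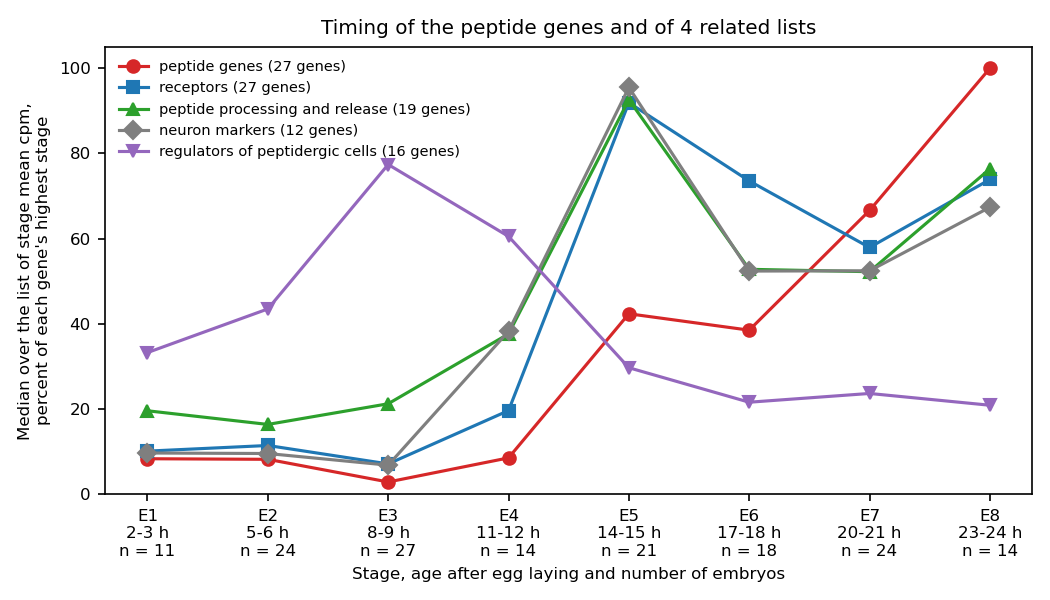
Median over genes of the percent of each gene's own highest stage mean, at the stages E1 to E8, for the 27 tested members, 27 receptors, 19 genes of peptide processing and release, 12 neuron markers and 16 regulators of peptidergic cells. The members reach 100% at E8, the receptors, processing genes and neuron markers have their highest value at E5 (over 90%), and the regulators have theirs at E3 (77.4%).

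Markers of other cell types changed as well between early and late stages. Of 12 neuron markers, 11 were higher late and 1, elav, was lower (-1.33). Their summed level had medians of 123 cpm at E1, 354 cpm at E3, 788 cpm at E5, 361 cpm at E6 and 539 cpm at E8, with ranges from 32.01 to 1061 cpm at E3 and from 4.15 to 2095 cpm at E7. All 6 muscle and all 5 midgut markers were higher late, as were 4 of 5 epidermal, 2 of 5 glial and 1 of the 2 tested fat body markers. Of the 4 measured maternal germ plasm markers 1 was higher and 1 lower. Over all genes tested, 32% were higher late and 27.1% lower. The glial share called higher (40%) and the germ plasm shares (25% each way) were near these. No marker was at 0 in every embryo of a stage. Their part in the change of the members was not tested.

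Single embryos of a stage differed widely in these genes. The median biological coefficient of variation was 1.11 over the 27 tested members, from 0.84 to 1.52. Over all genes tested it was 0.867, from 0.298 to 2.55. Members and other genes were not compared at matched levels, so a wider spread is not shown to be particular to the members. For 5 pairs of genes whose products act together or share cells, the relation across embryos was examined in the last 3 stages where both genes had a count in at least 50% of the embryos, which left 7 tests, on log2 of cpm plus 1, with two-sided permutation p and adjustment over the 7. Ilp2 and Ilp3 at E8 had Pearson's r of 0.638 (permutation p = 0.013, adjusted p = 0.0772) and Spearman's rho of 0.784 (permutation p = 0.00157, adjusted p = 0.011) over 14 embryos, and r of 0.689 without the 2 embryos farthest from the median of Ilp2. Within the library E2 at E8, r was 0.7, and the library E3 held too few embryos. Over the 10 embryos most alike to E8, r was 0.529 and rho 0.658. Both genes lie next to each other on chromosome arm 3L and overlap CG32052, and no other pair passed after adjustment. The subunit genes Burs and Pburs at E8 had r of 0.124 (permutation p = 0.673, adjusted p = 0.766).

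Overlaps with other genes limit how surely some counts belong to a member. By the BDGP6.54 annotation, Dh31 and Ilp2 overlap another gene on the same strand, and Ilp3, Ilp4, CCAP, Dh44, Dsk, ETH, Hug, ITP, Lk, SIFa, Tk, Ilp5, Ilp7 and Ptth overlap a gene on the opposite strand. The counting rule for such reads was not given in the sources used here, and their part in the values was not tested.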

How the data were processed

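The deposited table holds raw read counts per gene for 288 single embryos, which the authors mapped with STAR on the BDGP6 genome, counted with HTSeq on the annotation of Ensembl release 91 and deposited without normalization. Whether counting used molecular identifiers or strand is not given in the sources used here. Genes were matched by identifier to Ensembl release 115 (17560 of 17698 genes), the 1.43% of counts on unmatched genes were left out, and cpm was computed over the 13829 protein-coding genes. No 2 samples had identical counts, and 1 sample with conflicting age labels was used at E7 by its title.

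Samples with at least 300000 counts and 4500 genes were kept, and the small cluster was delimited by multidimensional scaling, computed without the members and the lists of receptors and processing genes. Genes with a mean above 1 cpm over the kept samples were tested with edgeR 4.0.16 (quasi-likelihood, TMM scaling, stage and library as terms, R 4.3.3), fitted on all 8 stages. Alternatives were DESeq2 1.42.0 and its size factors, no filter, no library term, Pearson correlation in the scaling, all 250 samples, thinning to 300000 counts without replacement, embryos most alike to their labelled stage, single libraries and samples left out. The calculations were tested on simulated data. Pair relations used 100000 permutations.

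The members and all gene lists were chosen with earlier results of these data known. By rule, the values of every stage were given in full for the 12 tested members with the highest stage mean and for subunits of a heterodimer, other members by selected values and tests, and of each further list up to 4 genes called in each direction by fold. Of the cell type markers only counts are given, apart from elav, which was chosen after its value was seen. No sequences were used here.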

Additional observations from a re-analysis of the deposited data

Results flagged for a closer look

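The members were also counted in the 97 samples of the small cluster that were left out of the comparisons above, apart from the alternative over all samples that passed the depth filter. Summed over these samples, the members without Ilp4 had 9566 counts, above the limit that a count of 0 allows, and this is why the cluster is listed here. The summed level without Ilp4 ranged from 3.23 to 68.3 cpm with a median of 15.8 cpm, below the stage medians of 46.7 to 557 cpm in the embryos used. By labelled stage the medians were between 9.56 and 28.2 cpm. Ilp4 had a median of 9.10 cpm and a highest value of 350 cpm in the cluster, and Crz had the next highest median, 1.84 cpm. In the embryos used, the E2 and E3 medians of AstC (0.554 and 0.446 cpm) and Capa (0.548 and 0.331 cpm) were near or below their cluster medians (0.573 and 0.513 cpm). Those of Hug (0.24 and 0.223 cpm) and Crz (19.2 and 6.39 cpm) were above theirs (0 and 1.84 cpm).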

How the results depend on the processing

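The late-minus-early comparison was the steadiest: 25 members were higher under 11 of the 12 alternatives and 1 was lower under all 12, with 6 higher within the library E3 alone, where 18 of the 27 members lost their call, ITP (log2 fold change -2.59) and Gpb5 (-1.09) reversed, and 3 receptor and 3 processing genes were called. Counts at single steps moved more. DESeq2 called 4 members from E1 to E2, against 2.68% higher and 7.06% lower of all genes in that fit. The fit without a filter called 3 from E6 to E7, against 9.71% and 4.83%. All samples that passed the depth filter, the small cluster included, gave 4 from E1 to E2, 9 from E2 to E3, 4 from E3 to E4, 2 from E6 to E7 and 3 from E7 to E8. Embryos most alike to their labelled stage gave 1 from E1 to E2 (4.91% higher and 7.79% lower of all genes) and 6 from E5 to E6 (11.7% and 6.55%). Thinned embryos gave 1 from E1 to E2, 9 from E2 to E3 and 3 from E3 to E4. In the thinned fit, the shares of all genes higher and lower were 1.03% and 3.71%, 12.8% and 10.6%, and 12.8% and 4.84% at these 3 steps. Within the library E2, there were 0 from E1 to E2, 2 from E2 to E3, 2 from E3 to E4, 6 from E4 to E5 and 1 from E6 to E7. All genes higher and lower there were 1.51% and 3.16% from E1 to E2, and 2.94% and 4.52% from E2 to E3. They were 2.49% and 0.239% from E3 to E4, 9.18% and 3.71% from E4 to E5, and 4.05% and 1.68% from E6 to E7. Within the library E3, there were 0 from E1 to E2, 0 from E2 to E3, 0 from E3 to E4, 3 from E4 to E5 and 0 from E6 to E7. Few genes were called at all in these fits: within the library E3, 0% of all genes from E1 to E2 and from E6 to E7, 0.0312% higher from E3 to E4 and 4.53% higher from E4 to E5, and within the library E2 9.18% higher from E4 to E5, so that the low counts say nothing particular to the members. Over all samples, the shares of all genes called higher and lower were 9.32% and 4.05% from E1 to E2, 7.7% and 8.71% from E2 to E3, 8.3% and 3.33% from E3 to E4, 11.5% and 4.9% from E6 to E7, and 3.88% and 13.4% from E7 to E8. Fewer embryos enter the fits within a library, and for the other alternatives the cause was not tested. Leaving out the library E3, a choice made after the data were seen, kept the members called in either direction at each step within 1.5 times their number. It also kept the late-minus-early counts within that limit. The size factors of DESeq2 in edgeR, no library term, Pearson correlation and leaving out the sample of conflicting age did the same. Counts of higher and lower members taken apart were less steady. From E6 to E7, the higher count stayed within that limit under 5 of the 12 alternatives and the lower count under 7. No paired analysis was possible because the labels give no replicate numbers that link embryos across stages. Depth limits the 10 members below the filter and all early values, since at 300000 counts the median embryo held 7 members up to E3.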

Other observations

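The 10 members below the filter were fitted without it. Besides the insulin-like peptide genes and NPF given above, Lk (log2 fold change 3.03), Ptth (1.68) and ETH (1.57) were called higher late, on low means. Of all 13291 genes in this fit, 30.1% were called higher and 21.5% lower. The highest embryo at E8 was at 4.28 cpm for ETH and 23.7 cpm for Ptth. ETH had 10 counts in all at E8, and the median of Ptth was 0 cpm at E7 and at E8. Pburs (0.88) and Nplp3 (-0.49) were not called.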
